A study of Mus musculus with 469 samples.

Results

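The comparison set cells sorted for OMP-eGFP against cells sorted for Neurog1-eGFP, both taken from mouse olfactory epithelium 14 days after olfactory bulbectomy. Libraries were chosen by their labels and kept when 1000 or more genes had a deposited value of 1 or more, which left 67 of the 76 libraries labelled for the 2 sorts. These were 20.4% of the libraries that passed the same limit in the whole series. The OMP-eGFP group held 42 of 50 libraries, from B6 mice that carried the OMP-eGFP reporter. The Neurog1-eGFP group held 25 of 26 libraries, from FVB mice that carried the Neurog1-eGFP reporter. All animals were 8 weeks old and had undergone bulbectomy, so neither group was uninjured. A second pair of groups, used only to look at the same genes in other libraries, consisted of engrafted OMP-eGFP cells of the B6 strain (29 of 89 libraries) and of FVB Neurog1-eGFP cells, uninjured (46 of 61) or 5 days after bulbectomy (48 of 51). Each cell was captured on the Fluidigm C1 system, and its polyadenylated RNA was amplified and sequenced on its own. The labels give the reporter and the strain but neither the animal nor its sex. Each group hence stood as 1 sample, cells were not replicates, no difference has a replicate check, and no test was made.

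The olfactory epithelium renews its sensory neurons throughout life. Bulbectomy removes the olfactory bulb, the target of the neurons' axons, and leads to the death of mature neurons and to their replacement from basal cells. Neurog1 is a proneural transcription factor of the immediate neuronal precursors, which pass through a Gap43-positive immature stage before they make olfactory marker protein (Omp). Mature neurons detect odorants in their cilia, where a single chosen receptor acts through the G protein alpha subunit Golf (Gnal) and adenylyl cyclase 3, and the cAMP formed opens a cyclic nucleotide-gated channel. Calcium that enters then opens the chloride channel Ano2.

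Depth was alike in scale in both groups: a median of 1347937 recovered fragments per OMP cell (266494 to 2186037) and 1099226 per Neurog1 cell (131391 to 2172041). A median of 3355.5 genes was listed at 1 or more in OMP cells and 2697 in Neurog1 cells. Thinned to 200000 fragments, the medians were 3128.5 genes in 42 OMP cells and 2591.5 in 24 Neurog1 cells, 1 Neurog1 cell being too shallow. A gene is called found in a cell when its CPM (the share of the cell's signal, times 1000000) was 10 or more, and intervals are exact 95% Clopper-Pearson intervals over cells. They cover counting error only, and without molecular identifiers PCR copies cannot be counted as separate molecules. No 2 libraries were identical.

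Among the OMP libraries, 2 stood apart. Their summed CPM over the sustentacular markers, genes of the epithelial support cells, was 82771 and 41322, and the next highest OMP cell had 4443. Together they held 95.7% of that signal in the OMP group. The higher of the pair, called the Omp-negative library here, had 10 of the 12 markers, an Omp CPM of 0 and a Stoml3 CPM of 9.15, which goes against its label. The other, called the mixed library, had all 12 markers beside an Omp CPM of 3870. Summed sustentacular CPM ranged from 0 to 82771 in OMP cells (median 0) and from 0 to 1712 in Neurog1 cells (median 24.6). With both libraries in, 10 of 11 measured sustentacular markers were at least 2-fold higher in OMP cells (median log2 ratio 4.39). Without them, 3 of 7 were higher and 3 lower (median -0.91). Horizontal basal cell and immune markers had no measured member in either group, and all 8 horizontal basal markers were at 0 in every Neurog1 cell. Values that turn on the pair are given with and without it.

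Genes of the sex chromosomes separated the groups as well. Xist, the RNA of the inactive X chromosome, was found in 33 of 42 OMP cells and 0 of 25 Neurog1 cells. Y-linked genes, of which 4 were read, were found in 0 of 42 OMP cells, and 19 of 25 Neurog1 cells held any of them. No 14 day cell held both, and 9 OMP and 6 Neurog1 cells held neither. Nextera XT libraries do not mark strand, so reads of Xist and its antisense partner cannot be told apart. In the 14 day groups, the sort, the mouse strain and the expression of X- and Y-linked genes went together and cannot be told apart. In the other libraries they were split: engrafted OMP cells had Xist in 0 of 29 and a Y-linked gene in 16 of 29. The uninjured Neurog1 cells had them in 9 and 29 of 46, and the 5 day Neurog1 cells in 2 and 44 of 48. Xist and a Y-linked gene were found together in 4 uninjured and 2 of the 5 day Neurog1 cells. In engrafted OMP cells 0 held both.

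The genes behind the labels were examined first. Omp, the cytoplasmic marker protein of mature olfactory neurons, had a CPM of 0 to 6008 in OMP cells (median 660.4) and of 0 to 732 in Neurog1 cells (median 0). It was found in 41 of 42 OMP cells (97.6%, interval 87.4 to 99.9), the exception being the Omp-negative library, and in 8 of 25 Neurog1 cells (32%, 14.9 to 53.5). Its mean CPM was 1314 in OMP cells and 96.9 in Neurog1 cells, a log2 ratio of mean CPM + 1 of 3.75. The groups overlapped, with 2 Neurog1 cells at or above the OMP median. Neurog1 itself was listed at 0 in all 42 OMP cells (a count of 0 allows a share of up to 7.14%) and was found in 12 of 25 Neurog1 cells (mean 80.2, median 5.99, highest 582 CPM).

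Neurod1, a proneural factor that acts after Neurog1, was found in 1 of 42 OMP cells (2.38%, 0.0603 to 12.6) at 51.2 CPM, and that cell was the mixed library. Of the 25 Neurog1 cells, 6 held it (24%, 9.36 to 45.1), at up to 2618 CPM. Kcnj2, which encodes the inward rectifier potassium channel Kir2.1, was found in 13 of 42 OMP cells (31%, 17.6 to 47.1), at up to 2469 CPM. In Neurog1 cells it reached a CPM of 1.51, from 2 fragments in all, and was found in 0 of 25, which allows a share of up to 12%. All 13 OMP cells with Kcnj2 also held Omp. Stoml3, a stomatin-like protein of the sensory cilia, had a CPM of up to 9642 in OMP cells (median 2012) and of up to 158.1 in Neurog1 cells (median 0). It was found in 41 OMP cells and 1 Neurog1 cell, the widest separation of any marker in the mature neuron list by log2 ratio (8.42).

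**Figure D1:**
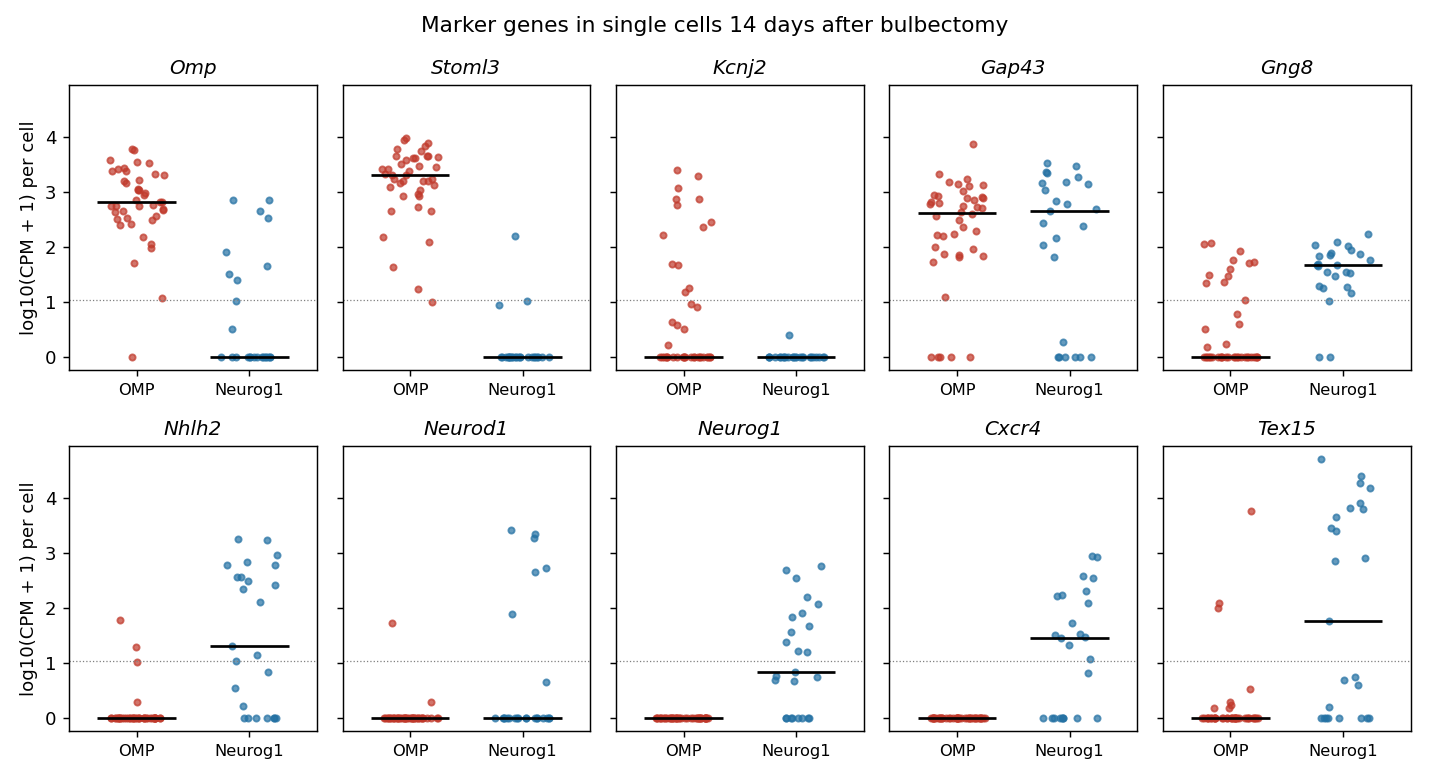
Each panel plots 1 gene as log10(CPM + 1), with 1 point per cell for OMP-eGFP cells (left, n = 42) and Neurog1-eGFP cells (right, n = 25), the group median as a black line and the detection limit of CPM 10 as a dotted line. Omp and Stoml3 fill the OMP panels in 41 of 42 cells each, Neurog1 and Cxcr4 are at 0 in all OMP cells, and Gap43 spans like ranges in both.

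The sorts overlapped at the immature stage. Gap43, the growth cone protein of immature neurons, was found in 37 of 42 OMP cells (mean 695, median 412.5, highest 7379 CPM) and in 18 of 25 Neurog1 cells (mean 849.6, median 448.9, highest 3327). Of the OMP cells, 36 held Gap43 and Omp, 5 held Omp without Gap43, and 1 (the Omp-negative library) held Gap43 without Omp. Of the Neurog1 cells, 8 held both, 10 held Gap43 without Omp, none held Omp alone and 7 held neither. All 7 of those Neurog1 cells held Neurog1 or Neurod1: 4 held both factors, 2 held Neurog1 and 1 held Neurod1. Neurog1 and Omp were found together in 2 Neurog1 cells and in 0 OMP cells. Cxcr4, a chemokine receptor of the precursors, was listed at 0 in all 42 OMP cells and was found in 4 of the 8 Neurog1 cells that held Omp.

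Genes were measured when their mean CPM reached 5 in OMP or in Neurog1 cells. Of the 10022 measured, 3246 (32.4%) had a 2-fold or higher mean in OMP cells and 2871 (28.6%) were lower to the same degree, with a median log2 ratio of 0.04. Single cells vary widely, so a 2-fold difference between means was common, and the counts below are read against these shares. Without the Omp-negative and mixed libraries, 3125 were higher and 2930 lower.

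**Figure D2:**
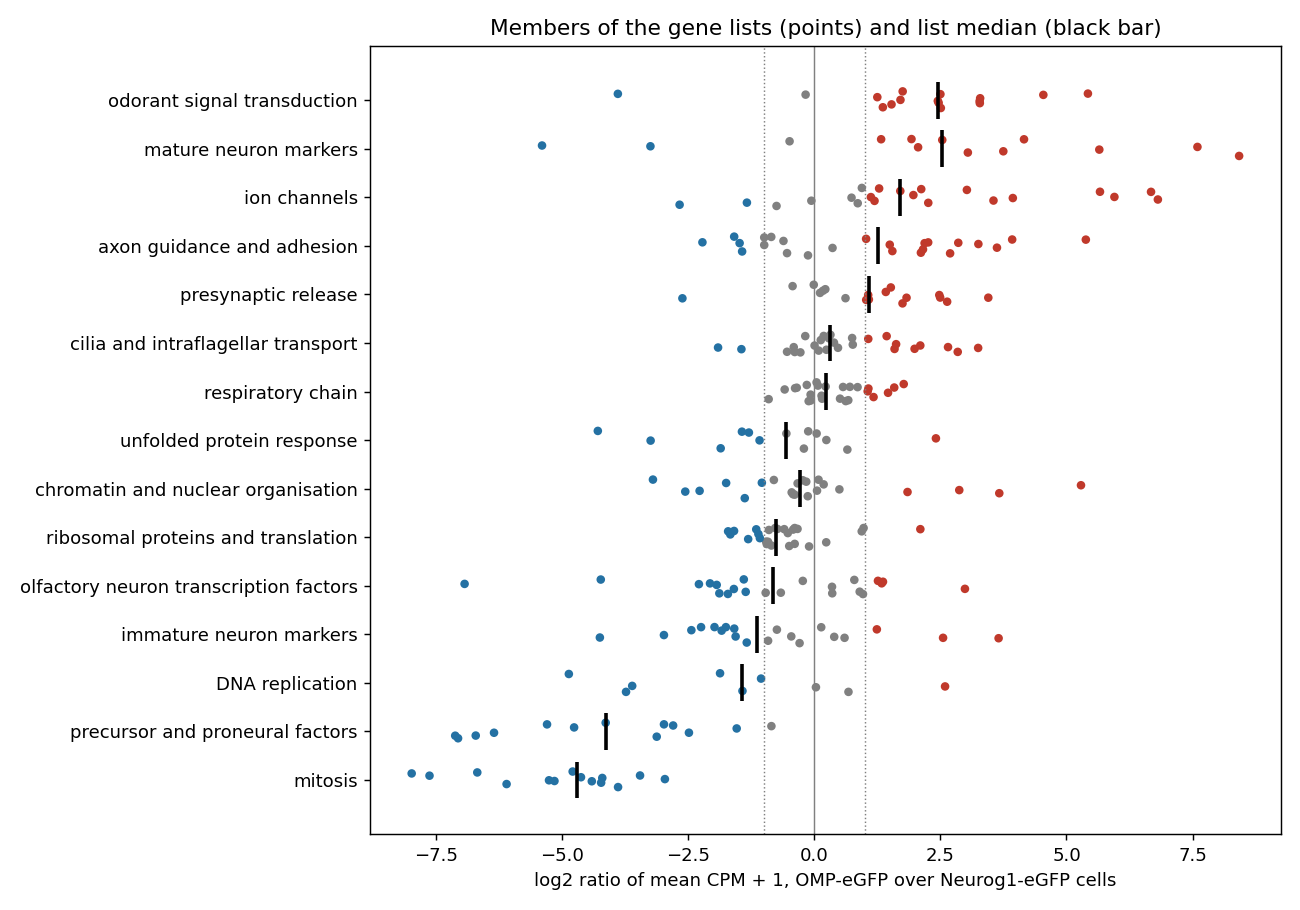
The x axis gives the log2 ratio of mean CPM + 1, OMP-eGFP over Neurog1-eGFP cells, for each measured member (points) of 15 gene lists, with the list median as a black bar and dotted lines at 2-fold. Points at least 2-fold higher in OMP cells are red and those at least 2-fold lower are blue: transduction and mature markers lie to the right (medians 2.46 and 2.54), precursor factors and mitosis genes to the left (-4.13 and -4.70).

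Odorant transduction genes were higher in OMP cells: 14 of 16 measured members were at least 2-fold higher (87.5%, against 32.4% of all genes), 1 was lower and 1 lay within 2-fold, with a median log2 ratio of 2.46. Of the other listed names, 4 were below the limit, and Grk3 is another name of Adrbk2, which is among them. Summed over the list, CPM ran from 4719 to 53721 in OMP cells (median 29092) and from 811 to 11162 in Neurog1 cells (median 4448). All OMP cells except the Omp-negative library lay above the highest Neurog1 cell. Much of the sum came from the G protein subunits Gnb1 and Gnal. Without the Omp-negative and mixed libraries they averaged 16717 and 5110 CPM in OMP cells, of a mean sum of 29135.

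The G protein subunits came first in the order of the cascade. Gnal, the alpha subunit Golf, had a CPM of 0 to 13287 in OMP cells (median 5069) and of 0 to 4571 in Neurog1 cells (median 62.1), a log2 ratio of 3.28. It was found in 41 OMP and 17 Neurog1 cells. Gnas, the related stimulatory alpha subunit, went the other way, with a mean CPM of 2.69 in OMP cells and 69.1 in Neurog1 cells, found in 3 of 42 and in 13 of 25. Cell by cell, 38 OMP cells held Gnal without Gnas, 3 held both and 1 held neither. Of the Neurog1 cells, 9 held Gnal alone, 8 both, 5 Gnas alone and 3 neither. Gnb1, the beta subunit, averaged 16374 CPM in OMP cells and 1686 in Neurog1 cells (log2 ratio 3.28).

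The gamma subunits were split in the same manner. Gng13, the gamma subunit of the mature cascade, was found in all 42 OMP cells (median 568.4, highest 4566 CPM) and in 17 of 25 Neurog1 cells (median 60.9, highest 221.6), with a log2 ratio of 3.29. Gng8, a gamma subunit known from immature olfactory neurons, was found in 11 of 42 OMP cells (26.2%, interval 13.9 to 42) and in 22 of 25 Neurog1 cells (88%, 68.8 to 97.5). Its median CPM was 0 in OMP cells and 45.6 in Neurog1 cells, and its log2 ratio was -1.75. In OMP cells 31 held Gng13 alone and 11 held both, whereas among Neurog1 cells 3 held Gng13 alone, 14 both and 8 Gng8 alone. Ric8b, a chaperone and exchange factor for Golf, was found in 38 OMP and 9 Neurog1 cells, with means of 906.7 and 158.3 CPM.

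**Figure D3:**
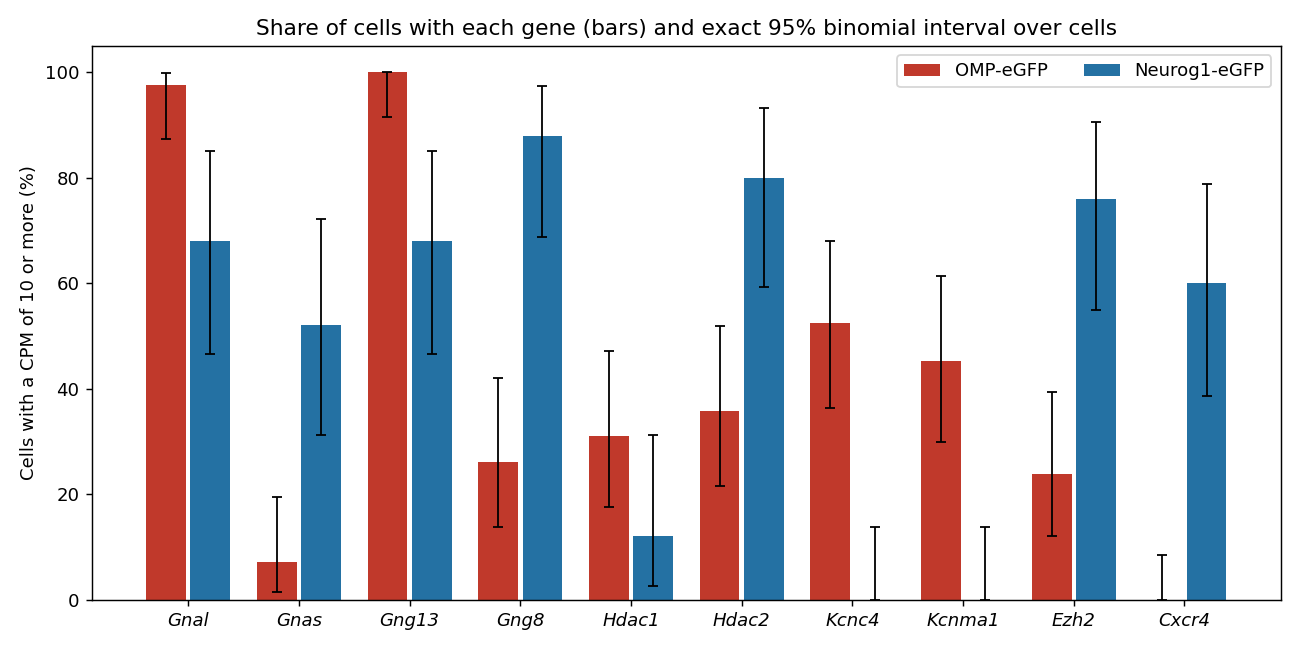
Bars give the percentage of cells with a CPM of 10 or more for 10 genes, OMP-eGFP (red, n = 42) left of Neurog1-eGFP (blue, n = 25), with exact 95% binomial intervals over cells as error bars. Gnal and Gng13 are in 97.6% and 100% of OMP cells, whereas Gnas, Gng8, Hdac2, Ezh2 and Cxcr4 are in higher shares of Neurog1 cells.

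Downstream of the G protein, Adcy3, the adenylyl cyclase of olfactory cilia, averaged 184.9 CPM in OMP cells and 31.8 in Neurog1 cells (log2 ratio 2.50), and was found in 19 and 3 cells. Cnga2, the main subunit of the cyclic nucleotide-gated channel, had a median CPM of 1047 in OMP cells (highest 5708) and of 0 in Neurog1 cells (highest 3052), and it was found in 37 of 42 and 11 of 25. The ratio of its means was smaller (log2 1.36) than that of Cnga4, a modulatory subunit (2.45; means of 206.97 CPM in OMP cells and 37.04 in Neurog1 cells). Cngb1, the third subunit, was listed at 0 in every cell of both groups. Gapdh and Ppia, housekeeping genes, averaged 0.19 and 0.20 CPM in OMP cells without the Omp-negative and mixed libraries. A listed 0 hence need not mean absence, and its source was not tested. Ano2, the calcium-activated chloride channel, was found in 26 OMP and 2 Neurog1 cells (log2 ratio 5.42), and 2 OMP cells held 80.3% of its OMP signal, with a mean of 788.7 and a median of 55.9 CPM in OMP cells. Its median in Neurog1 cells was 0.

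Slc12a2, the cotransporter that loads the neurons with chloride, did not differ by 2-fold: it averaged 742.4 CPM in OMP cells and 834.9 in Neurog1 cells and was found in 36 and 19 cells. Pde1c, a phosphodiesterase of the cilia, averaged 803.7 CPM in OMP cells and 144.6 in Neurog1 cells. Rtp1 and Rtp2, which carry odorant receptors to the cell surface, were 2-fold or more higher in OMP cells (log2 ratios 1.53 and 1.75), and they were found in 38 and 30 of 42 OMP cells and in 12 and 11 of 25 Neurog1 cells. Rgs2, a regulator of G protein signalling, was the member that was lower: it was listed at 0 in all OMP cells and found in 5 Neurog1 cells (mean 13.8 CPM).

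**Figure D4:**
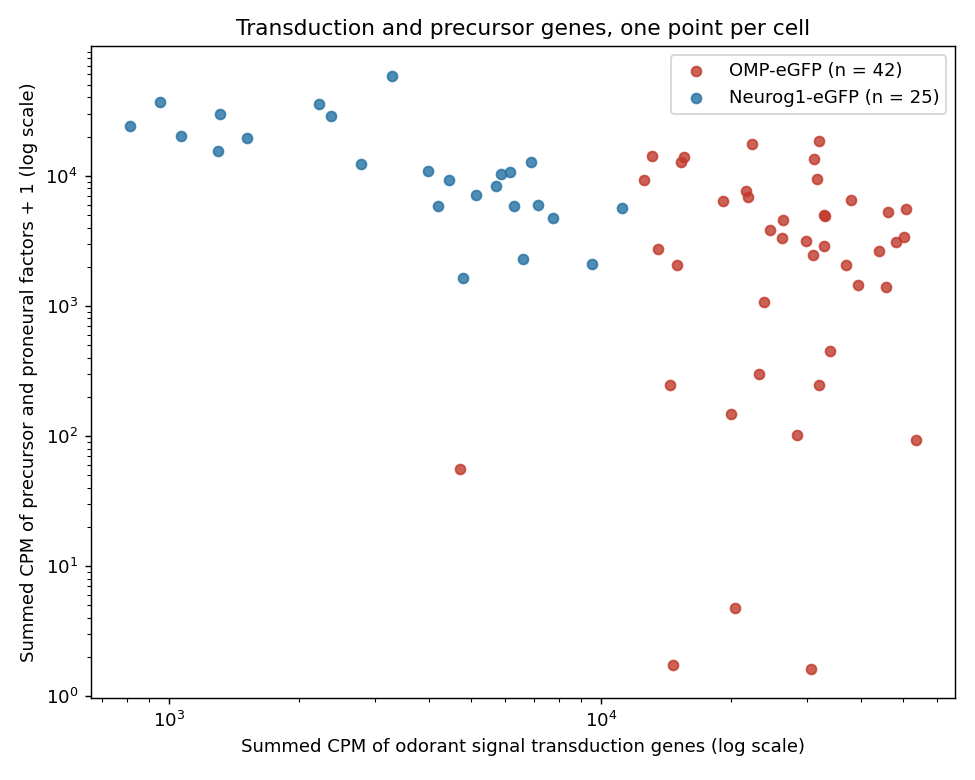
Each point is 1 cell, with the summed CPM of the odorant transduction genes on the x axis and that of the precursor and proneural factors plus 1 on the y axis, both on log scales. OMP-eGFP cells (red, n = 42) reach 53721 on the x axis and all but 1 lie beyond the highest Neurog1-eGFP cell (blue, n = 25) at 11162, while precursor sums overlap. In OMP cells, Gnb1 and Gnal make up much of the x sums, and Sox11, a precursor list member within 2-fold, most of the y sums.

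Promoters were read for the listed genes, since the early B-cell factors (Ebf) are transcription factors of the olfactory lineage and bind the palindromic core CCCNNGGG. Promoter sequences (250 bases before to 50 after a gene's start) came from RefSeq on GRCm38.p6, searched for that core and counted once for both strands. The core was in 13.4% of all 27025 promoters and 17.4% of those of measured genes. It was in 18.3% of promoters of genes at least 2-fold higher and in 18.1% of those at least 2-fold lower in OMP cells. In the transduction list 7 of 15 matched promoters held it (46.7%), in the mature marker list 4 of 10, in the precursor list 5 of 15, in the immature list 2 of 13 and in the mitosis list 0 of 13. These counts describe letters in small lists and no binding was measured. With T before and A after the core, it was in 0.914% of all promoters and 0 of 15 of the transduction list. The other letters searched, on both strands, cannot overlap the core: the E-box CAGCTG (16.1% of all promoters, 4 of 15 transduction genes), the E-box CATCTG (17.2%, 2 of 15) and the homeodomain site TAATTA (5.31%, 0 of 15). The sequences below are 4 transduction genes that were higher in OMP cells and 1 precursor factor that was lower, chosen after their values were seen to show the core on both sides of the comparison. Capitals mark the core, and each runs 5′ to 3′ on the gene's strand: Cnga2 at chrX:71991599-71991898 (plus), Cnga4 at chr7:105404318-105404617 (plus), Gng13 at chr17:25716922-25717221 (plus, the first listed of 2 starts, with 2 overlapping matches), Rtp2 at chr16:23930745-23931044 (minus) and Nhlh1 at chr1:172057547-172057846 (minus).
Cnga2: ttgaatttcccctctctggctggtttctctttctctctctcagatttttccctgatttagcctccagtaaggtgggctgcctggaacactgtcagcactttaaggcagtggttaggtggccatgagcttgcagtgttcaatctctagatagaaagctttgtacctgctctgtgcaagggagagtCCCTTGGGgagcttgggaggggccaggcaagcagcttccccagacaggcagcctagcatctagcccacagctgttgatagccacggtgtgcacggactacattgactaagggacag
Cnga4: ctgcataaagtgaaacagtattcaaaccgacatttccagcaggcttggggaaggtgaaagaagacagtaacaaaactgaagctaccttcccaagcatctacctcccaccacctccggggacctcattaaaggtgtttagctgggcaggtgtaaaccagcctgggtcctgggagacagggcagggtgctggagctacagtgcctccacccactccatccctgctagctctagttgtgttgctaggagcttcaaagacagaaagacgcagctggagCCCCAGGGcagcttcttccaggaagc
Gng13: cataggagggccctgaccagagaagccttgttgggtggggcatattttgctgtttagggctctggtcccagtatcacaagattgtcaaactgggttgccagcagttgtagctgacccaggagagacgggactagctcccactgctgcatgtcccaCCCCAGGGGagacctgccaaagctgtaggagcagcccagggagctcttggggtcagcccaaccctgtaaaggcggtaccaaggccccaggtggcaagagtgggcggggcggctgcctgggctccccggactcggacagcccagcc
Rtp2: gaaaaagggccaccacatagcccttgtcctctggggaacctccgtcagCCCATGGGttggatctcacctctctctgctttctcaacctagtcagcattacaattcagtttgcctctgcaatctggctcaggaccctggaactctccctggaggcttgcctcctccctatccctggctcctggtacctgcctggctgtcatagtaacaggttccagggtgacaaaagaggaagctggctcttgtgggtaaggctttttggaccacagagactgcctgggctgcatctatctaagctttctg
Nhlh1: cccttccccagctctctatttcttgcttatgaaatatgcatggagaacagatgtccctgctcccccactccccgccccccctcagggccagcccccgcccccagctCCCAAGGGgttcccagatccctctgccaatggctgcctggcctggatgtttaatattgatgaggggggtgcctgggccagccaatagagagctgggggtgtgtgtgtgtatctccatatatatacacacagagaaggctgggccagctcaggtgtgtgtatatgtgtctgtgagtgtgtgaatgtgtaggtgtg
The position of the core differed among the 5 promoters, and Nhlh1, which holds it, was lower in OMP cells (mean 11.2 CPM, found in 7 of 42) than in Neurog1 cells (mean 83.4 CPM, found in 17 of 25).

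Odorant receptors, of which a mature neuron expresses a single gene at a high level, were counted over 1116 Olfr entries where a cell's CPM reached 50. Any was found in 41 of 42 OMP cells (97.6%, 87.4 to 99.9) and in 19 of 25 Neurog1 cells (76%, 54.9 to 90.6). In OMP cells 1 cell had none, 13 had 1, 15 had 2 and 13 had 3 or more, and in Neurog1 cells 6 had none, 8 had 1, 6 had 2 and 5 had 3 or more. The highest receptor of a cell had a median CPM of 6163 in OMP cells (0.572 to 86700.2) and 1510 in Neurog1 cells (0 to 20050). It passed 1000 CPM in 38 of 42 OMP cells and 13 of 25 Neurog1 cells. Where a receptor was found, the highest one held 90% or more of all receptor CPM in 28 of 41 OMP cells and 12 of 19 Neurog1 cells, and the leading receptors were 37 and 18 different genes. Receptor genes have near copies, so the counting upstream may have split reads among them.

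Mature markers beyond the cascade were also higher: 10 of 13 measured members were at least 2-fold higher in OMP cells (76.9%, against 32.4% of all genes) and 2 were lower (median log2 2.54). S100a5, a calcium-binding protein of mature olfactory neurons, had a median CPM of 676.8 in OMP cells (found in 37) and of 0 in Neurog1 cells (found in 5). Umodl1, also called olfactorin, was found in 31 OMP and 2 Neurog1 cells (log2 ratio 4.16). Kirrel2, an adhesion molecule used in axon sorting, was found in 18 OMP and 1 Neurog1 cells. Ncald and Ablim1 were the members that were lower, with log2 ratios of -5.39 and -3.24, and Nrp1, a semaphorin receptor, lay within 2-fold (-0.49).

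Immature neuron markers were lower in part: 10 of 20 were at least 2-fold lower in OMP cells (50%, against 28.6% of all genes), 3 were higher and 7 lay within 2-fold (median log2 -1.12). Tubb3, neuron-specific tubulin, had a median CPM of 491.7 in OMP cells and 1325 in Neurog1 cells. Marcks, an actin-linked substrate of protein kinase C, had medians of 1532 in OMP cells and 5506 in Neurog1 cells. Dpysl3 and Dpysl5, collapsin response mediators of growing axons, had log2 ratios of -2.24 and -2.98, and Dpysl5 was found in 17 of 42 OMP cells and 21 of 25 Neurog1 cells. Elavl4, a neuronal RNA-binding protein, averaged 245.7 CPM in OMP cells and 1331 in Neurog1 cells.

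Members of the stathmin family, which bind tubulin, differed in direction. Stmn1 had a median CPM of 1304 in OMP cells (highest 5223) and of 224.7 in Neurog1 cells (highest 598.5), a log2 ratio of 2.55, and Stmn4 was found in 27 OMP and 3 Neurog1 cells (3.65). Stmn2 and Stmn3 lay within 2-fold (-0.74 and 0.40). Dcx, the microtubule protein doublecortin, lay within 2-fold too, at mean CPM of 1829 in OMP cells and 1204 in Neurog1 cells. The third member that was higher, Gpm6a, had a log2 ratio of 1.24, and of 0.96 without the Omp-negative and mixed libraries. The summed immature CPM overlapped, at 2375 to 29334 in OMP cells (median 12779) and 2276 to 32863 in Neurog1 cells (median 20891).

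Precursor and proneural factors were lower in OMP cells: 12 of 13 measured members were at least 2-fold lower (92.3%, against 28.6% of all genes), none was higher, and the median log2 ratio was -4.13. With the 3 members listed at 0 in OMP cells left out it was -3.05. Members with an OMP mean below 5 CPM, such as Neurog1 and Nhlh2, were measured only through Neurog1 cells. The mean CPM limit had fixed their direction, so the count is no separate support. Without that limit the list median was -2.88. Nhlh2, a basic helix-loop-helix factor, was found in 2 of 42 OMP cells (mean 2.07, highest 58.5 CPM) and in 15 of 25 Neurog1 cells (mean 319.6, highest 1793). Hes6, a helix-loop-helix factor that favours neuronal fate, was found in 2 OMP and 12 Neurog1 cells. Insm1, a zinc-finger factor of neuronal progenitors, was less apart: it was found in 19 OMP and 15 Neurog1 cells, with means of 83.2 and 242.9 CPM. Sox11, which is active in newborn neurons, was the member within 2-fold (mean CPM of 4424 in OMP cells and 7958 in Neurog1 cells). The summed precursor CPM overlapped, at 0.628 to 18575 in OMP cells (median 3127) and 1640 to 58848 in Neurog1 cells (median 10773). Most of it was Sox11: the mean sums were 4736 CPM in OMP cells and 15408 in Neurog1 cells. In the highest Neurog1 cell, 51393 of the 58848 CPM were Tex15, a list member described below. The sums thus say little about the other members.

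Ezh2, which methylates histones in a Polycomb repressive complex, was found in 10 of 42 OMP cells (23.8%, interval 12.1 to 39.5) and in 19 of 25 Neurog1 cells (76%, 54.9 to 90.6). Its mean CPM was 63.2 in OMP cells and 503.7 in Neurog1 cells. Tex15, a gene known from the mouse germ line, was found in 3 of 42 OMP cells, with 5818 CPM in the mixed library, and in 13 of 25 Neurog1 cells (mean 5675, highest 51393 CPM). Its OMP mean was 143.8 CPM with the Omp-negative and mixed libraries and 5.57 without them, and the log2 ratio was -5.29 with them and -9.76 without.

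Transcription factors of the olfactory lineage were mixed (median log2 -0.81). In OMP cells 4 of 22 measured members were at least 2-fold higher (18.2%, against 32.4% of all genes) and 10 lower (45.5%, against 28.6%). Among the Ebf factors, Ebf1 averaged 666.9 CPM in OMP cells and 2183 in Neurog1 cells (log2 ratio -1.71), Ebf2 lay just within 2-fold (-0.96), Ebf3 was closer (-0.22), and Ebf4 was higher in OMP cells (1.36). Lhx2, a homeodomain factor needed for receptor choice in the mouse, had a median CPM of 90.1 in OMP cells (found in 34) and of 250.6 in Neurog1 cells (found in all 25). Bcl11b, a zinc-finger factor linked to receptor class choice, had medians of 6.32 in OMP cells and 342.1 in Neurog1 cells, and its relative Bcl11a went the other way at just under 2-fold (0.97; 1.03 without the Omp-negative and mixed libraries). St18, a zinc-finger factor, was listed at 0 in all OMP cells and found in 8 Neurog1 cells, and Bach2, a repressor, was found in 2 OMP and 10 Neurog1 cells. Sp8 had a log2 ratio of -1.88, and of -6.77 without those libraries.

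Of the chromatin genes, 4 of 22 were at least 2-fold higher (18.2%, against 32.4% of all genes) and 6 lower (27.3%, against 28.6%) in OMP cells (median log2 -0.28), and the histone deacetylases were opposed. Hdac1, a histone deacetylase, was found in 13 of 42 OMP cells (31%, 17.6 to 47.1) and 3 of 25 Neurog1 cells (12%, 2.55 to 31.2), with means of 48.3 and 2.88 CPM. Hdac2, its close relative, was found in 15 of 42 OMP cells (35.7%, 21.6 to 52) and 20 of 25 Neurog1 cells (80%, 59.3 to 93.2), with means of 112.02 and 1033 CPM. Hdac1 without Hdac2 was found in 10 OMP cells and in 0 Neurog1 cells.

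Hmgn2, a nucleosome-binding protein, was found in 36 of 42 OMP cells (median 114.2, highest 416.3 CPM) and in 0 of 25 Neurog1 cells (highest 9.47 CPM, 74 fragments in all). Hmgn2 has near-identical copies in the mouse genome, so its counts are uncertain. Cbx5 and Cbx3, heterochromatin proteins of the HP1 family, had log2 ratios of -2.27 and -1.74, with Cbx3 found in 38 OMP cells and all 25 Neurog1 cells. Lbr, the lamin B receptor that ties heterochromatin to the nuclear envelope and is known to be lost from mature mouse olfactory neurons, was found in 12 of 42 OMP cells and 6 of 25 Neurog1 cells, with means of 143.2 and 372.8 CPM.

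Cell cycle genes were found in few cells. All 14 measured mitosis genes were at least 2-fold lower in OMP cells (100%, against 28.6% of all genes), 10 of them listed at 0 in every OMP cell. The mean CPM limit had fixed this direction, since these genes were measured only through Neurog1 cells. The median log2 ratio was -4.70, and -0.70 with means of log2(CPM + 1) over cells. Top2a and Mki67, the topoisomerase and the antigen of cycling cells, were listed at 0 in OMP cells and were each found in 3 Neurog1 cells, at up to 3273 and 858 CPM. At least 3 mitosis genes were found in 0 OMP and 4 Neurog1 cells, and 17 of 25 Neurog1 cells had a sum of 0. The 2 highest Neurog1 cells held 76% of that group's mitosis signal. DNA replication genes were lower for 6 of 9 measured members (66.7%, against 28.6% of all genes). Mcm7, a subunit of the replication helicase, was found in 1 OMP and 7 Neurog1 cells. Pcna, the polymerase clamp, had like means (27.9 CPM in OMP cells and 27.2 in Neurog1 cells) and was found in 12 OMP and 3 Neurog1 cells. Cdkn1b, an inhibitor of cyclin-dependent kinases, was found in 2 OMP and 10 Neurog1 cells.

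Ion channel genes were higher for 14 of 21 measured members (66.7%, against 32.4% of all genes) and lower for 2 (9.52%, against 28.6%). The list held 32 genes in all. The median log2 ratio was 1.71, and 1.24 with the 3 measured members listed at 0 in Neurog1 cells left out. Kcnc4, the potassium channel Kv3.4, was found in 22 of 42 OMP cells (median 11.9, highest 1613 CPM) and 0 of 25 Neurog1 cells (highest 7.32, 7 fragments in all). Kcnma1, the large-conductance calcium-activated potassium channel, was found in 19 of 42 OMP cells (highest 1360 CPM) and 0 of 25 Neurog1 cells (highest 1.27, 2 fragments in all). Kcnab2, a potassium channel beta subunit, was found in 23 OMP and 2 Neurog1 cells. Scn9a, the sodium channel Nav1.7, was found in 41 OMP and 21 Neurog1 cells, and its median CPM was 2704 in OMP cells and 709.9 in Neurog1 cells. Atp1b1, a subunit of the sodium pump, averaged 796.6 CPM in OMP cells and 203.1 in Neurog1 cells.

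Of 24 measured axon guidance and adhesion genes, 13 were higher (54.2%, against 32.4% of all genes) and 4 lower (16.7%, against 28.6%). The median log2 ratio was 1.26, and 1.03 without the 1 member listed at 0 in Neurog1 cells. Cntn4, contactin 4, which takes part in the targeting of olfactory axons in the mouse, was found in all 42 OMP cells (median 3934 CPM) and 19 of 25 Neurog1 cells (median 370.3). Plxna3, a semaphorin receptor subunit, was found in 26 OMP and 4 Neurog1 cells, and Epha5, an ephrin receptor, in 14 OMP cells while listed at 0 in Neurog1 cells. Robo2, the Slit receptor, and Nrp2, a semaphorin receptor, were among the members that were lower, with log2 ratios of -1.58 and -2.21. Efna5, an ephrin, lay within 2-fold (-0.85).

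Presynaptic genes were higher for 11 of 18 measured members (61.1%, against 32.4% of all genes) and lower for 1 (5.56%, against 28.6%). Their median log2 ratio was 1.08. Snap25, a membrane fusion protein of synapses, had a median CPM of 1879 in OMP cells and 84.3 in Neurog1 cells. Syt1, the calcium sensor of release, was found in 36 OMP and 10 Neurog1 cells, and Cplx2, complexin, in 24 and 6. Slc17a6, the vesicular glutamate transporter, was found in 30 OMP and 7 Neurog1 cells, with a log2 ratio of 1.03, and of 0.69 without the Omp-negative and mixed libraries. Pclo, a scaffold of the active zone, had like means (669.5 CPM in OMP cells and 673 in Neurog1 cells).

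Cilia and intraflagellar transport genes stood at 9 of 27 higher (33.3%, near the 32.4% of all genes) and 2 lower in OMP cells (median log2 0.32). Tubb4b, a tubulin of cilia, had a median CPM of 582.4 in OMP cells and 177.4 in Neurog1 cells. Enkur, a ciliary and sperm tail protein, was found in 29 OMP and 5 Neurog1 cells, and Bbs1, a subunit of the BBSome, in 15 and 2. Most transport subunits lay within 2-fold, such as Ift81 (-0.38) and Kif3a, a subunit of the ciliary motor (0.24).

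In the main setting, the list medians of general cell functions lay within 2-fold. In others, the unfolded protein response median was -1.25 over all libraries and the ribosomal median -1.14 with means of log2(CPM + 1). Ribosomal and translation genes had a lower mean in OMP cells for 22 of 26 measured members (median log2 -0.75). Of these genes, 7 were at least 2-fold lower (26.9%, against 28.6% of all genes) and 1 was higher (3.85%, against 32.4%). Rplp0 averaged 74.4 CPM in OMP cells and 225.4 in Neurog1 cells. Rpl3, the member that was higher, was found in 11 OMP and 0 Neurog1 cells at low levels (means of 7.40 and 0.953 CPM), and ribosomal protein genes have many near copies. Respiratory chain genes had 6 of 25 higher (24%, against 32.4%), none lower, and a median log2 ratio of 0.23. Unfolded protein response genes, which take part in receptor choice, had 1 of 13 higher and 6 lower (46.2%, against 28.6%), with a median of -0.55. Xbp1 was found in 4 OMP and 3 Neurog1 cells, while Hspa5, the chaperone BiP, had like means (375.4 CPM in OMP cells and 362.8 in Neurog1 cells). Housekeeping genes had 3 higher and 3 lower of 11 (27.3% each way, against 32.4% and 28.6%). Actb averaged 1644 CPM in OMP cells and 3678 in Neurog1 cells, while Ywhaz had means of 2245 and 2192. Hspa8, a constitutive chaperone, was found in 40 OMP and 19 Neurog1 cells (log2 ratio 2.65). Bcl2l1, the survival factor Bcl-xL, had medians of 0 in OMP cells and 397.96 in Neurog1 cells.

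The genes at the extremes of the comparison were taken by a rule: the 15 highest and 15 lowest log2 ratios were kept. To qualify, a gene needed in its higher group a mean CPM of at least 50 and detection in at least 30% of cells. The exact intervals of the 2 shares had to be separate, and the FPKM table had to give the same sign. The highest ran from 6.68 to 10.81 and comprised Xist, Stoml3, Kcnj2, Tusc5, Snph, Adam28, Pcnxl4, Mfge8, Stmnd1, Ccser1, Kirrel, Kcnma1, Kazn, Vps54 and Kcnc4, of which 3 (Kirrel, Kazn, Stmnd1) were listed at 0 in all Neurog1 cells. Tusc5 was found in 33 of 42 OMP cells (median 215.8 CPM) and 2 of 25 Neurog1 cells. Kirrel, an immunoglobulin-like adhesion molecule, was found in 18 OMP cells. The lowest ran from -8.46 to -5.29 and comprised Ddx3y, Riok2, Eif2s3y, Cxcr4, St18, Crabp1, Gad2, Nhlh2, Amotl1, Neurog1, Baz1a, Fxyd6, Col9a2, Thsd7b and Tex15, of which 6 were listed at 0 in all OMP cells. Crabp1, a retinoic acid binding protein, was found in 1 OMP cell and 17 Neurog1 cells (mean 330.7 CPM). Gad2, an enzyme of GABA synthesis, was listed at 0 in OMP cells and found in 8 Neurog1 cells. Ddx3y and Eif2s3y are Y-linked and have X-linked relatives.

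The same genes were then read in libraries that the comparison did not use, engrafted OMP cells over uninjured and 5 day Neurog1 cells, which share sort and strain with it but no library. The engrafted cells were shallower, with medians of 501828 recovered fragments (lowest 13369) and 2431 genes, against 1347937 and 3355.5 in the 14 day OMP cells. Median fragments were 848318 in uninjured and 1136942 in 5 day Neurog1 cells. A gene not found in engrafted cells can hence have been missed. In these other libraries 10126 genes were measured. Of these, 2011 (19.9%) were 2-fold or more higher and 3953 (39%) lower in engrafted OMP cells, with a median log2 ratio of -0.46. Apart from the Y-linked pair, 12 of 13 of the lowest genes were at least 2-fold lower there too (median -5.13), the exception being Nhlh2 (-0.78; mean CPM of 197.1 in engrafted cells, 339.5 in uninjured and 338.4 in 5 day Neurog1 cells). Apart from Xist, 6 of 14 of the highest genes were at least 2-fold higher, 6 lay within 2-fold and 2 (Snph and Ccser1) were lower (median 0.69). Stoml3, Kcnj2, Tusc5, Adam28, Kazn and Kcnc4 were the 6. Kcnma1 had a ratio of 0.31 there, at mean CPM of 128.8 in engrafted OMP cells, 174.8 in uninjured and 32.1 in 5 day Neurog1 cells.

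Among the lists, the transduction genes had a median of 1.26 in these other libraries, mature markers 2.25, immature markers -1.41 and precursor factors -4.72. The channel, axon and presynaptic lists, which had medians of 1.71, 1.26 and 1.08 at 14 days, had 0.44, 0.20 and 0.03 there. Stmn1, with 2.55 at 14 days, had -0.12. Hmgn2 had 4.41 there and was found in 16 of 29 engrafted OMP cells, 2 of 46 uninjured and 0 of 48 5 day Neurog1 cells. Whether these differences between the 2 pairs of groups exceed the variation between animals was not tested, and neither was the part that depth has in them.

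**Figure D5:**
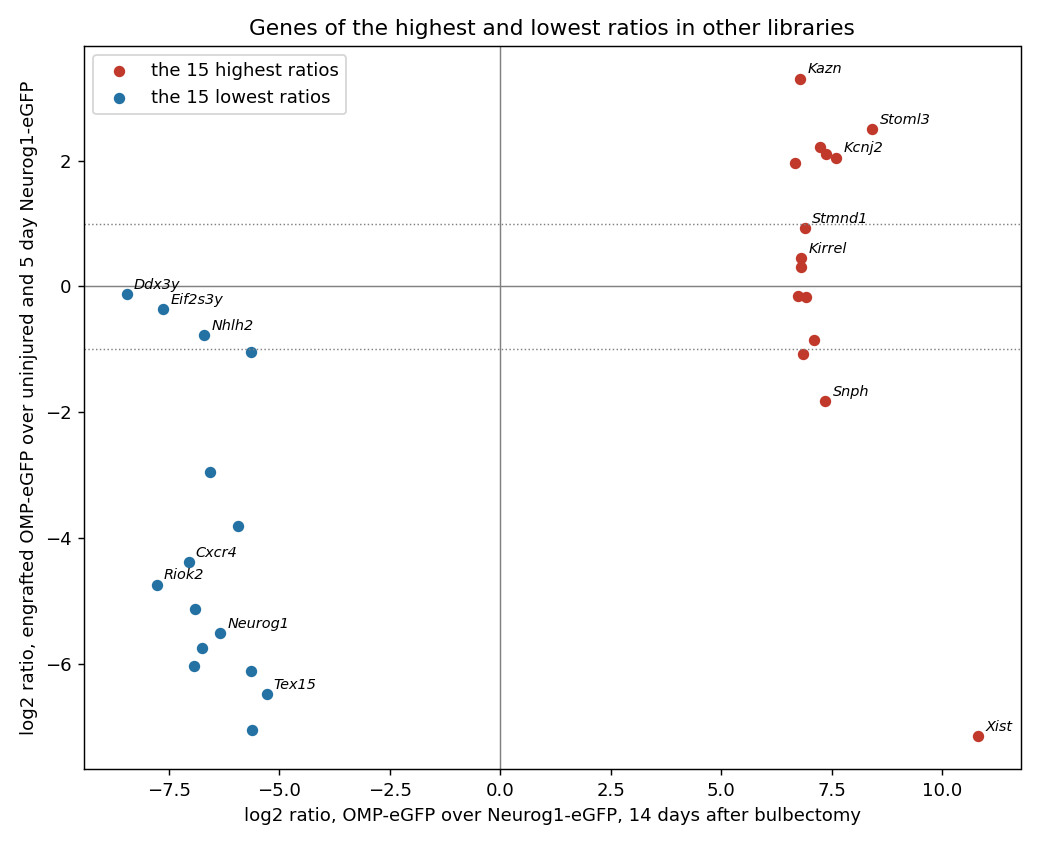
Each point is 1 of the 30 genes of the rule, with its log2 ratio at 14 days (OMP-eGFP over Neurog1-eGFP) on the x axis and its log2 ratio in engrafted OMP-eGFP over uninjured and 5 day Neurog1-eGFP cells on the y axis, and dotted lines at 2-fold. The 15 lowest genes (blue) lie mostly below the lower dotted line, the 15 highest (red) lie on both sides of 0, and Xist has opposite signs in the 2 comparisons (10.81 and -7.15).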

How the data were processed

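The authors deposited a table of signal per gene and cell, that is estimated fragments which they scaled to nearly equal totals, and a table of FPKM values, with 1 column per cell in each. The submitters' processing notes name STAR 2.5.2a, FastQC, Cuffnorm and Cufflinks 2.2.1, and the genome build mm9. The roles of these tools and the annotation were not given in the sources used here. Whole counts had been assumed in the plan, but 99.4% of nonzero values were not whole, so no count test was used. Of 23308 entries, 27 that bear dates in place of gene names were dropped, with 0.418% of the signal. Values were expressed as CPM of the column sum. Fragments per cell were recovered from the smallest step between values (tolerance 0.02), which was checked on simulated data, and a CPM of 10 stood for about 13 fragments at the median OMP depth.

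Groups were compared by the log2 ratio of mean CPM + 1, which understates low genes, over genes whose mean CPM reached 5 in OMP or Neurog1 cells. A gene was called past 2-fold, without a test, because each group counted as 1 sample. For 0 of n cells, the share allowed is 3 divided by n. The members and the 27 gene lists (473 genes, 4 absent from the tables) were chosen with earlier results of these data known. Genes were named from the lists or by the rule given in the text, with Olfr, Gm, Rik and mitochondrial genes left out of the rule. Some listed genes are counted but not reported here by name. No doublet caller was run, and 393 FPKM columns of other groups were not used. Of 13 alternative settings, 11 were planned and 2 were added after seeing the data. Python 3.11.15 was used, with pandas 2.3.3, numpy 2.4.6, scipy 1.17.1 and matplotlib 3.10.9.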

Additional observations from a re-analysis of the deposited data

How the results depend on the processing

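The 32 single genes followed across settings kept their direction under all 13 alternatives, which their choice nearly fixed, since 30 of them were taken for the highest and lowest ratios. Their sizes did move: over all libraries Stoml3 had 5.49, against 8.42, and Thsd7b -2.29, against -5.61. The counts of 3246 higher and 2871 lower genes became 1516 and 1108 with means of log2(CPM + 1), and 2139 and 1645 without the highest 8% of cells of each group per gene. Without the 2 highest cells of each group per gene, which removes unequal shares of 42 and 25 cells, 2902 were higher and 1264 lower. The higher share of those past 2-fold was then 69.7%, against 53.1%, and the median log2 ratio was 0.69, against 0.04. The immature marker median of -1.12 was -0.84 with a pseudocount of 10 and -1.0 over all 50 and 26 libraries.

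Among the small lists of other cell types, the sustentacular median of 4.39 was -0.91 without the Omp-negative and mixed libraries and -2.24 without the highest 8% of cells. The respiratory epithelium median of 0.40 was -2.42 without those libraries and -2.51 in the 36 and 22 cells with 2000 or more genes, but 3.04 at a mean CPM of 20 or more and 2.64 without the 2 highest cells. The microvillar and Bowman gland median of -2.12 was 0.96 at a mean CPM of 20 or more, 4.86 without the 2 highest cells, 4.16 without the highest 8% and 3.06 in cells with 2000 or more genes. The median of the glia, vessel, fibroblast and blood markers, 0.47, was -3.04 without the 2 highest cells and also without the highest 8%, -5.65 in cells with 2000 or more genes and -5.47 without the Omp-negative and mixed libraries. These medians rest on few genes. In the main setting 3 respiratory epithelium markers and 4 microvillar and Bowman gland markers were measured. Of the glia, vessel, fibroblast and blood markers, 2 were measured, 1 higher and 1 lower, and without the Omp-negative and mixed libraries only 1. Over all lists and settings, 17 medians came within 2-fold and 10 passed it. The presynaptic median of 1.08 was 0.92 with a pseudocount of 10 and 0.89 over all libraries. With a pseudocount of 10 the axon median of 1.26 was 0.97. It was 0.72 with means of log2(CPM + 1) and 0.93 without the highest 8% of cells. The transcription factor median of -0.81 was -1.49 without the 2 highest cells and -1.67 without the highest 8%. In cells with 2000 or more genes it was -1.44. Sign changes that stayed within 2-fold were the housekeeping median of -0.08 (0.01 without the 2 highest cells, 0.14 over all libraries), the immediate early median of 0.48 (-0.01 in cells with 2000 or more genes) and, with means of log2(CPM + 1), the glia (-0.23) and respiratory epithelium (-0.09) medians. Where cells were left out, the mean CPM limit was applied again, so the measured members changed as well. Of all genes, 6529 were measured without the 2 highest cells and 5994 without the highest 8%, against 10022. The cause of the shifts was not tested. The medians of the transduction, mature, precursor and mitosis lists kept their direction under every alternative, but the mitosis median of -4.70 was -0.70, within 2-fold, with means of log2(CPM + 1). The mean CPM limit had fixed the mitosis direction in the main setting, and without that limit the median was -4.62.

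No paired analysis was possible because the groups share no replicate number and no test was made. Replicates of cells could not stand for animals, so leaving out single animals was not possible, and depth limits genes of low level: 1 cell in a group of 25 moves a share by 4%.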

Other observations

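Several genes of other roles were listed at 0 in 1 of the groups. Pou2f3, a transcription factor known from microvillar cells, was found in 12 of 42 OMP cells (mean 90.03 CPM, of which 2 cells held 70.3%) and was listed at 0 in Neurog1 cells. It was the only higher member of the microvillar and Bowman gland list, in which 4 were measured and 2 were lower. Trpm5 of that list had a log2 ratio of -4.58 without the Omp-negative and mixed libraries. No OMP cell held more than 1 marker of the list. Car2, a carbonic anhydrase, was found in 11 of 42 OMP cells and was listed at 0 in Neurog1 cells. Bcl2l11, the pro-apoptotic factor Bim, was found in 10 of 42 OMP cells (mean 38.05 CPM) and listed at 0 in Neurog1 cells. In the other libraries it was found in 0 of 29 engrafted OMP cells, which were shallower, and in 1 of 46 uninjured and 0 of 48 5 day Neurog1 cells. Xiap, an inhibitor of apoptosis, was found in 16 OMP and 4 Neurog1 cells, and Trp53 in 0 OMP and 5 Neurog1 cells. Btg1, an antiproliferative factor, was found in 26 OMP and 22 Neurog1 cells, with medians of 97.9 and 679 CPM. Dusp1, an early response phosphatase, was found in 21 OMP and 10 Neurog1 cells, and Egr1 in 8 and 5. These genes were chosen from the lists after their values were seen.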
